A study of Homo sapiens with 18 samples.

Results

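ALOX5AP, AKR1C3 and PTGER4 are 3 human genes of eicosanoid synthesis and reception. They were followed across 18 RNA sequencing libraries of 2 acute myeloid leukaemia cell lines. The 3 genes were picked by name, with their changes between clones and parental cells already known, and they are 3 of the 5069 distinct sets of values that the deposited table holds. They stand in 7 lines of it, and the values tied to them are described without a test wherever clones are set against parental cells.

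OCI-AML3 and OCI-AML2 are established leukaemia cell lines. OCI-AML3 carries a mutated NPM1 (NPM1c+) and OCI-AML2 carries normal NPM1 (NPM1WT). Caspase-2, a protease encoded by CASP2, was knocked out by CRISPR/Cas9, and each line has 2 knockout clones beside its parental cells. This gave 6 groups of 3 libraries, which are OCI-AML3 clone 1, clone 2 and parental, and OCI-AML2 clone 1, clone 2 and parental. All cells were untreated and had been in culture for under 2 weeks. Each knockout group is a single clone, and nothing says that the 3 libraries of a group came from separate cultures, so every p-value measures the spread between these libraries, which may be technical. The study asked what caspase-2 does in leukaemia cells with and without mutated NPM1.

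Eicosanoids are short-range lipid signals made from arachidonic acid, a fatty acid released from membranes by phospholipases. One branch starts with 5-lipoxygenase (ALOX5), which needs its membrane partner ALOX5AP to take up arachidonic acid, and leads to leukotrienes, which draw and activate neutrophils. The other starts with the cyclooxygenases PTGS1 and PTGS2 and leads through separate synthases to prostaglandins and thromboxane. AKR1C3 reduces prostaglandin D2 and prostaglandin H2 to F-type prostaglandins and also converts steroids. PTGER4 encodes EP4, a receptor for prostaglandin E2 that raises cyclic AMP and is found on monocytes and other leukocytes.

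The promoters of the genes that the results turn on come first, as RefSeq places them on GRCh38.p14, from 250 bases before to 50 bases after the annotated start of transcription, each printed on the gene's own strand. Capitals mark any match, on either strand, to CCAAT (the CCAAT box), GAGGAA (a core bound by the myeloid factor PU.1) or TGACNNNGC (the core of the antioxidant response element). ALOX5AP lies on the plus strand at chr13:30713235-30713534 and PTGER4 on the plus strand at chr5:40679665-40679964.
ALOX5AP: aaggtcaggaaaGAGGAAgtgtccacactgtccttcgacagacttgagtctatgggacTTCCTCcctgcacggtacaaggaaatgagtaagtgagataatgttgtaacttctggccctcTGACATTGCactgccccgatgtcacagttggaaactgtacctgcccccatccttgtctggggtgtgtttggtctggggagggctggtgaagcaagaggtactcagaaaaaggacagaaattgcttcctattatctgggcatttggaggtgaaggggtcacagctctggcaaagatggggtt
PTGER4: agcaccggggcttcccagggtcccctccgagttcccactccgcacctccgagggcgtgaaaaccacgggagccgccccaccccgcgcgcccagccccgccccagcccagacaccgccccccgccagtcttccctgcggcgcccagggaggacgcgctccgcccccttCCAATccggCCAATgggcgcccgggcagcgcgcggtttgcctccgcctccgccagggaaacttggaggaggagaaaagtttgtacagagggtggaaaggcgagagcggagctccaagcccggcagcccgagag

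AKR1C3 is shown with its neighbours AKR1C1 and AKR1C2 on chromosome 10, because these paralogs moved differently in the same cells. RefSeq gives AKR1C3 more than one start, and the promoters lie on the plus strand at chr10:5048531-5048830 and chr10:5094164-5094463. AKR1C1 is on the plus strand at chr10:4963165-4963464 and AKR1C2 on the minus strand at chr10:5003808-5004107.
AKR1C3 upstream start: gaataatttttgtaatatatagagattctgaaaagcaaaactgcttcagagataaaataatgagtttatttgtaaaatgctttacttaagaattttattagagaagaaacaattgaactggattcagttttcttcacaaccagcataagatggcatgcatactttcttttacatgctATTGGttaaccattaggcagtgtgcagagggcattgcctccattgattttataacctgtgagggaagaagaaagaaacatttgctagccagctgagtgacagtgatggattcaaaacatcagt
AKR1C3 downstream start: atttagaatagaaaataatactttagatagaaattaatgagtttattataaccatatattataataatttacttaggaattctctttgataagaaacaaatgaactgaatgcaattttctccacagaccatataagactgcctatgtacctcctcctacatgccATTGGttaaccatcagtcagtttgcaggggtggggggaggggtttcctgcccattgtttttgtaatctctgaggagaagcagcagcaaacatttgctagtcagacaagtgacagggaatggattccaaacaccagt
AKR1C1: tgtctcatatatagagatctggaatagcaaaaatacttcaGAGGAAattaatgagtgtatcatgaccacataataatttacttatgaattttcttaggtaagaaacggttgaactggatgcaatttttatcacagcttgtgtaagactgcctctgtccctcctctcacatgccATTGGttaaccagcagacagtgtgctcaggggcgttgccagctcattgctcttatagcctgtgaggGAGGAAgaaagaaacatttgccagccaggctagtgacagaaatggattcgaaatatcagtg
AKR1C2: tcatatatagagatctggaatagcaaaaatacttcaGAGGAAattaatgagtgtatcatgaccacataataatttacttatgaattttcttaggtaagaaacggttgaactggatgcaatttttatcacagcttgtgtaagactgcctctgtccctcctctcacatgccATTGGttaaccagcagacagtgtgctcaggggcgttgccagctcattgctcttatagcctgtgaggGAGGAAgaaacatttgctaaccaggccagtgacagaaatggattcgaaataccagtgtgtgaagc

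Aligned end to end, the AKR1C1 and AKR1C2 promoters were 93.5% identical, with 288 of 308 aligned columns alike. The upstream AKR1C3 promoter was 74.4% identical to that of AKR1C1 and 70.0% to that of AKR1C2. The CCAAT letters stood once in each of the 4 AKR1C windows and at 2 places in that of PTGER4, where 34.6% of 35116 promoters of this length hold them. The GAGGAA letters stood at 2 places each in the windows of AKR1C1, AKR1C2 and ALOX5AP and in neither AKR1C3 window, against 27.85% of all promoters. TGACNNNGC stood once in the ALOX5AP window, against 13.35% of all promoters. These are matches of letters in a window and no evidence of binding.

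Values are TPM, a transcript level scaled for length and library size, as the authors deposited it. The read depth behind each value is unknown, since TPM keeps no record of counts. The table is only part of each library, with sums of 170140 to 199403 TPM, and it holds genes that had been selected for a change, so shares of changed genes describe the table. CASP2 mRNA stood at 3.00 to 5.06 TPM in the 6 OCI-AML2 clone libraries, against 35.3 to 37.3 TPM in OCI-AML2 parental cells. CASP2 stood at 26.3 to 35.4 TPM in the 6 OCI-AML3 clone libraries, against 28 to 30.1 TPM in OCI-AML3 parental cells, so the mRNA level does not check the OCI-AML3 labels. CASP2, FADS1, FADS2, GGT1, ITGAM and CD3D each rest on a single line of the table, the least certain way in which a symbol was tied to values. Of 12 markers of myeloid cells, the labelled cell type, 4 had values tied to their symbol, and summed to 127 to 152 TPM in the OCI-AML3 clones and 117 to 126 TPM in their parental cells. In OCI-AML2 the sum was 52.8 to 76.2 TPM in the clones and 134 to 143 TPM in parental cells. Among the other markers, NKG7, of cytotoxic lymphocytes, averaged 129 and 173 TPM in the OCI-AML2 clones and 69.2 TPM in parental cells. In OCI-AML3 it averaged 3.28 and 4.79 TPM in the clones and 16.8 TPM in parental cells. The T cell gene CD3D averaged 1.33 and 1.37 TPM in the OCI-AML2 clones and was listed at 0 in the other 4 groups. The mast cell gene TPSB2 averaged 3.82 TPM at most, and the platelet gene ITGA2B stayed at or below 2.98 TPM. Their part in the results was not tested.

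ALOX5AP was the most abundant of the 3 genes in every group. The OCI-AML3 libraries held 387, 399 and 444 TPM for clone 1, and 549, 607 and 503 TPM for clone 2, against 29.8, 23.5 and 28.6 TPM in parental cells. All 6 clone libraries lay above all 3 parental libraries. The means were 410 ± 29.8 TPM in clone 1, 553 ± 51.9 TPM in clone 2 and 27.3 ± 3.36 TPM in parental cells (SD, n = 3 each), which is 15.03-fold and 20.3-fold of the parental mean.

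In OCI-AML2 ALOX5AP ran the other way. The libraries held 243, 235 and 181 TPM for clone 1, and 600, 622 and 714 TPM for clone 2, against 805, 824 and 733 TPM in parental cells. All clone libraries were below all parental libraries, although the highest clone 2 library, at 714 TPM, lay close under the lowest parental one. Clone 1 was at 27.9% of the parental mean and clone 2 at 82.0%. On the log2(TPM + 1) scale, which is used for every log2 value here, the changes were 3.87 and 4.29 (SE 0.11) in OCI-AML3 clones 1 and 2 and -1.85 and -0.29 (SE 0.11) in OCI-AML2 clones 1 and 2. The 4 settled myeloid markers did not move together. CD14, of monocytes, averaged 42.1 and 50.2 TPM in the OCI-AML3 clones and 0.813 TPM in their parental cells, and 3.63 and 3.09 TPM in the OCI-AML2 clones and 6.44 TPM in theirs. FCGR1A, also of monocytes, was lower in the clones of both lines, at 30.2 and 28.3 TPM in the OCI-AML3 clones and 91.5 TPM in their parental cells, and at 68.02 and 53.4 TPM in the OCI-AML2 clones and 133 TPM in theirs. ANPEP averaged 58.7 and 67.03 TPM in the OCI-AML3 clones and 29.9 TPM in their parental cells, and at most 0.430 TPM in any OCI-AML2 group. ITGAM averaged 0.02 and 0.0533 TPM in the OCI-AML3 clones and 0.2 TPM in their parental cells, and 1.39 and 1.38 TPM in the OCI-AML2 clones and 0.283 TPM in theirs. The part of myeloid cell state in the ALOX5AP result was not tested, and in bulk libraries fewer cells of a type and less RNA per cell cannot be told apart.

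The groups fell in the order OCI-AML2 parental, OCI-AML2 clone 2, OCI-AML3 clone 2, OCI-AML3 clone 1, OCI-AML2 clone 1 and OCI-AML3 parental. Of these neighbours in the order, the libraries overlapped for OCI-AML2 clone 2 and OCI-AML3 clone 2 and for no other pair. By level, ALOX5AP ranked 60th and 39th of the 5069 sets in the OCI-AML3 clones and 959th in their parental cells. The mean clone change in OCI-AML3 minus that in OCI-AML2 was 5.15 on the log2 scale (SE 0.14) for ALOX5AP, 2.93 (SE 0.14) for AKR1C3 and 2.13 (SE 0.12) for PTGER4. Both clones of a line share its parental libraries, so their changes are not independent.

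**Figure D1:**
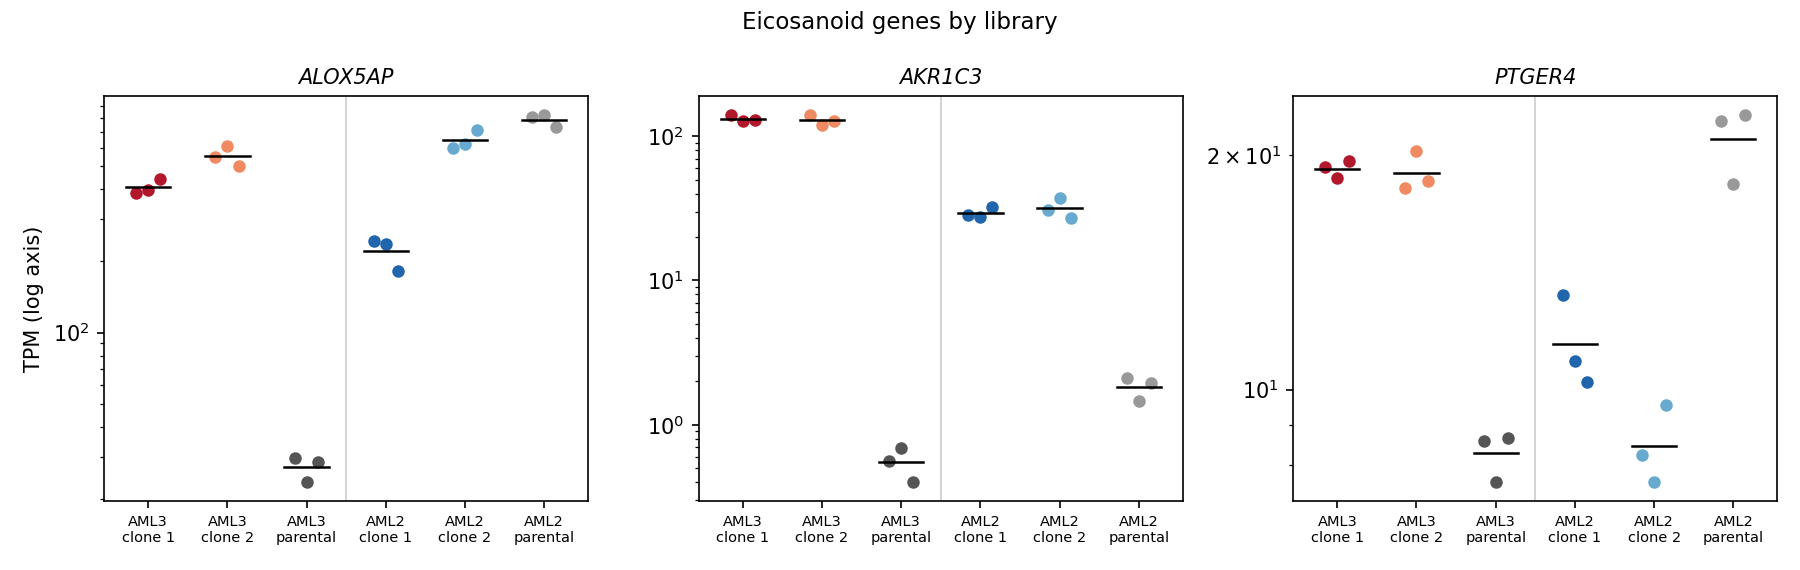
TPM of ALOX5AP, AKR1C3 and PTGER4 on log axes, with a point for each library and a line at the mean of 3 libraries in each of the 6 groups. ALOX5AP and PTGER4 are higher in the OCI-AML3 clones and lower in the OCI-AML2 clones than in the parental cells of the same line, and AKR1C3 is higher in the clones of both lines.

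AKR1C3 was close to silent in parental cells and abundant in all 4 clones. The OCI-AML3 libraries held 141, 127 and 129 TPM for clone 1, and 141, 121 and 127 TPM for clone 2, against 0.560, 0.690 and 0.400 TPM in parental cells. The clone means of 132 ± 7.35 and 130 ± 10.2 TPM were 241-fold and 235-fold of the parental mean of 0.550 ± 0.145 TPM (SD, n = 3 each), a ratio that rests on parental values under 1 TPM. The OCI-AML2 libraries held 28.5, 27.6 and 32.2 TPM for clone 1, and 30.9, 37.3 and 27.3 TPM for clone 2, against 2.11, 1.46 and 1.94 TPM in parental cells. These means were 16.03-fold and 17.3-fold of the parental one. No clone library overlapped with the parental libraries of its line.

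The log2 changes of AKR1C3 were 6.43 and 6.40 (SE 0.11) in OCI-AML3 clones 1 and 2 and 3.43 and 3.53 (SE 0.11) in OCI-AML2 clones 1 and 2. Among 4413 tested sets it held the 4th highest change in each OCI-AML3 clone, and the 22nd and 17th highest in OCI-AML2 clones 1 and 2. In the order of levels the OCI-AML3 clones overlapped with each other, as did the OCI-AML2 clones, while the step between the lines and the steps down to OCI-AML2 parental and OCI-AML3 parental cells showed no overlap.

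PTGER4 differed less in size and, like ALOX5AP, in opposite directions in the 2 lines. Its OCI-AML3 values were 19.3, 18.7 and 19.6 TPM for clone 1, and 18.2, 20.2 and 18.5 TPM for clone 2, against 8.60, 7.61 and 8.66 TPM in parental cells. Its OCI-AML2 values were 13.2, 10.9 and 10.2 TPM for clone 1, and 8.25, 7.61 and 9.56 TPM for clone 2, against 22.1, 18.3 and 22.5 TPM in parental cells. The clone and parental libraries did not overlap in either line. The clone means were 2.31-fold and 2.29-fold of the parental mean in OCI-AML3, and 54.6% and 40.4% of it in OCI-AML2.

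The log2 changes of PTGER4 were 1.12 and 1.10 (SE 0.10) in OCI-AML3 clones 1 and 2 and -0.82 and -1.21 (SE 0.10) in OCI-AML2 clones 1 and 2. The OCI-AML3 clones reached the level of OCI-AML2 parental cells, and these 3 groups overlapped. OCI-AML2 clone 2 and OCI-AML3 parental cells overlapped at the low end. Its lowest group mean was 8.29 TPM and its highest 21.0 TPM.

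The contrast between the clones of a line was, as far as known, not used to choose the genes. The 3 were tested in it with limma and Benjamini-Hochberg adjustment over all 4413 sets. Their levels in the same clone libraries were known at the choice, so these p-values are not independent of it. In OCI-AML2 ALOX5AP was 2.94-fold higher in clone 2 than in clone 1 (log2 difference 1.56, SE 0.11, adjusted p = 2.84e-09), and all 3 clone 2 libraries lay above all clone 1 libraries. PTGER4 was lower in OCI-AML2 clone 2 than in clone 1 (log2 difference -0.39, SE 0.10, adjusted p = 0.00261), at 74.0% of its level. AKR1C3 did not pass there (log2 difference 0.10, SE 0.11, adjusted p = 0.486). Beside these 2 calls of 3 genes, 58.9% of all tested sets differed between the OCI-AML2 clones, 29.9% higher and 29% lower in clone 2, and 58.4% of those with a symbol.

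Between the OCI-AML3 clones, 6.82% of all tested sets differed, 3.94% higher and 2.88% lower in clone 2, and 7.34% of those with a symbol. ALOX5AP was higher in clone 2 than in clone 1 (log2 difference 0.43, SE 0.11, adjusted p = 0.0324), at 1.35-fold. That call ended when any of 4 libraries was left out: clone 1 replicate 1 (adjusted p = 0.118), clone 1 replicate 2 (0.0822), clone 2 replicate 1 (0.0779) or clone 2 replicate 2 (0.145). It also ended with a replicate block (0.0515) and with a pseudocount of 0.1 TPM (0.0502), and the adjusted p ranged from 0.0142 to 0.145 over 24 alternatives. AKR1C3 (log2 difference -0.03, SE 0.11, adjusted p = 0.933) and PTGER4 (-0.02, SE 0.10, adjusted p = 0.967) did not pass.

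The other genes of the pathway came from a list of 100 symbols, of which 37 stand in the table and 25 could be tied to their values, the 3 genes above included. CYP2J2, an epoxygenase, did not reach 1 TPM in 3 libraries and was not tested, which left 21 others. In OCI-AML3, 19 of these 21 passed in both clones against parental cells, 10 higher and 9 lower, beside 67.1% of all tested sets (28.7% higher, 38.3% lower). Since a symbol could mostly be settled only for genes that differ between the parental lines and in a clone, the closer background is that of the 2084 tested sets with a symbol, where 85.3% passed. The median log2 change of the 21 was 0.48, against -0.06 over all tested sets. In OCI-AML2, 9 of the 21 passed in both clones, 7 higher and 2 lower, beside 38.4% of all tested sets (23.8% higher, 14.6% lower) and 45.8% of those with a symbol. The median there was 0.05, against 0.06 over all tested sets. These shares lie near the background, so the counts say nothing particular of the pathway. PTGS2, PTGER3, FPR2 and PTGER1 reached 1 TPM in 3 libraries on only 1 side, the clones for the first 3 and parental cells for PTGER1, and so were tested only because of the side where they are high. Their calls stood with no filter on low values. That setting leaves their own log2 changes as they are, so it cannot show what entry through 1 side does. Among the 17 others, 15 passed in OCI-AML3, 7 higher and 8 lower, beside 67.3% of all sets that reach 1 TPM on both sides and 85.9% of those with a symbol. In OCI-AML2 7 of the 17 passed, 5 higher and 2 lower, beside 38.6% and 48% of the same sets. Each side pooled the 2 lines, so a gene could reach 1 TPM through the other line alone. Of the 15 called in OCI-AML3, TBXAS1, OXER1 and AKR1C2 did not reach it there in 3 libraries on either side. PTGS1 and CYP2U1 did so only in parental cells and TBXA2R only in the clones. ALOX5 and EPHX2 did not reach it in OCI-AML2. These counts therefore do not remove entry through 1 side within a line.

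In the leukotriene branch, 2 of 3 tested genes rose and 1 fell in OCI-AML3, and none passed in both OCI-AML2 clones. In OCI-AML3 67.1% of all tested sets and 85.3% of those with a symbol passed, and in OCI-AML2 38.4% and 45.8%. ALOX5, the lipoxygenase that ALOX5AP serves, held 18.3, 18.3 and 18.1 TPM for OCI-AML3 clone 1, and 22.4, 21.7 and 18.1 TPM for clone 2, against 3.59, 4.25 and 2.56 TPM in parental cells. That was a rise of 5.26-fold and 5.98-fold (log2 change 2.12 and 2.29, SE 0.11, limma adjusted p = 1.04e-11 and 3.48e-12). In all 9 OCI-AML2 libraries ALOX5 was at or below 0.220 TPM and did not pass in either clone (adjusted p = 0.747 and 0.839), while ALOX5AP was at 181 TPM or more. The OCI-AML2 libraries thus hold abundant ALOX5AP transcripts with hardly any of ALOX5.

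MGST2, a microsomal glutathione transferase that can make leukotriene C4, averaged 119 ± 7.29 and 118 ± 8.77 TPM in the OCI-AML3 clones, against 27.5 ± 2.13 TPM in parental cells (SD, n = 3 each; log2 change 2.08 and 2.06, SE 0.09, adjusted p = 2.83e-13 and 3.25e-13). In OCI-AML2 it was at 106 and 122.99 TPM in the clones, against 132 TPM in parental cells, and passed as lower in clone 1 alone (adjusted p = 0.00484 for clone 1 and 0.308 for clone 2). GGT1, a gamma-glutamyl transferase of the step from leukotriene C4 to D4 and of glutathione turnover, fell in OCI-AML3 to 27.7 and 28.5 TPM in the clones, against 97.5 TPM in parental cells (log2 change -1.78 and -1.74, SE 0.08, adjusted p = 7.48e-13 and 1.03e-12). In OCI-AML2 it was at 104 TPM in clone 1, 60.9 TPM in clone 2 and 91.4 TPM in parental cells, and passed as lower in clone 2 alone (adjusted p = 0.0639 for clone 1 and 3.42e-06 for clone 2).

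In the prostanoid branch the 2 cyclooxygenases moved apart in OCI-AML3. PTGS2, the inducible cyclooxygenase, had 7.90, 7.16 and 7.52 TPM for OCI-AML3 clone 1, and 5.37, 5.20 and 5.83 TPM for clone 2, against 0.350, 0.350 and 0.530 TPM in parental cells (log2 change 2.60 and 2.20, SE 0.11, adjusted p = 3.17e-13 and 3.06e-12). PTGS1, the constitutive form, fell to 0.3 and 0.490 TPM in the OCI-AML3 clones, against 3.02 TPM in parental cells (log2 change -1.63 and -1.43, SE 0.09, adjusted p = 1.11e-11 and 6.56e-11). In OCI-AML2 both rose. PTGS2 averaged 2.82 and 4.89 TPM in the OCI-AML2 clones, against 0.9 TPM in parental cells (adjusted p = 3.21e-07 and 3.62e-10). PTGS1 averaged 28.1 and 25.7 TPM there, against 16.4 TPM in parental cells (adjusted p = 1.08e-06 and 7.13e-06). PTGS2, like AKR1C3, was higher in every clone of both lines than in the parental cells, but all 6 parental libraries of PTGS2 were below 1 TPM, and it entered the test through the clones alone.

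Downstream of the cyclooxygenases, TBXAS1, which makes thromboxane A2, fell in OCI-AML2 to 23.3 ± 4.28 and 19.8 ± 1.14 TPM in the clones, against 45.4 ± 4.68 TPM in parental cells (SD, n = 3 each; log2 change -0.94 and -1.15, SE 0.13, adjusted p = 6.85e-06 and 4.03e-07). In OCI-AML3 it passed as higher, at 0.693 and 0.710 TPM in the clones and 0.203 TPM in parental cells (adjusted p = 0.00256 and 0.00258), all low levels. TBXAS1 lies on chromosome 7 near CASP2, the targeted gene. Between them lie 7 tested genes with a settled symbol. Their median log2 change was -1.09 and -1.24 in OCI-AML2 clones 1 and 2, with 6 of the 7 below 0 in each. In OCI-AML3 clones 1 and 2 the median was -0.05 and -0.01, with 5 of the 7 below 0 in each. The part of this region in the TBXAS1 result was not tested. PTGDS, a prostaglandin D synthase, fell in OCI-AML2 to 2.19 and 0.643 TPM in clones 1 and 2, against 7.44 TPM in parental cells (adjusted p = 7.13e-05 and 1.19e-07). In OCI-AML3 PTGDS was at 0.730 and 1.27 TPM in the clones and 0.833 TPM in parental cells and did not pass (adjusted p = 0.885 and 0.340).

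**Figure D2:**
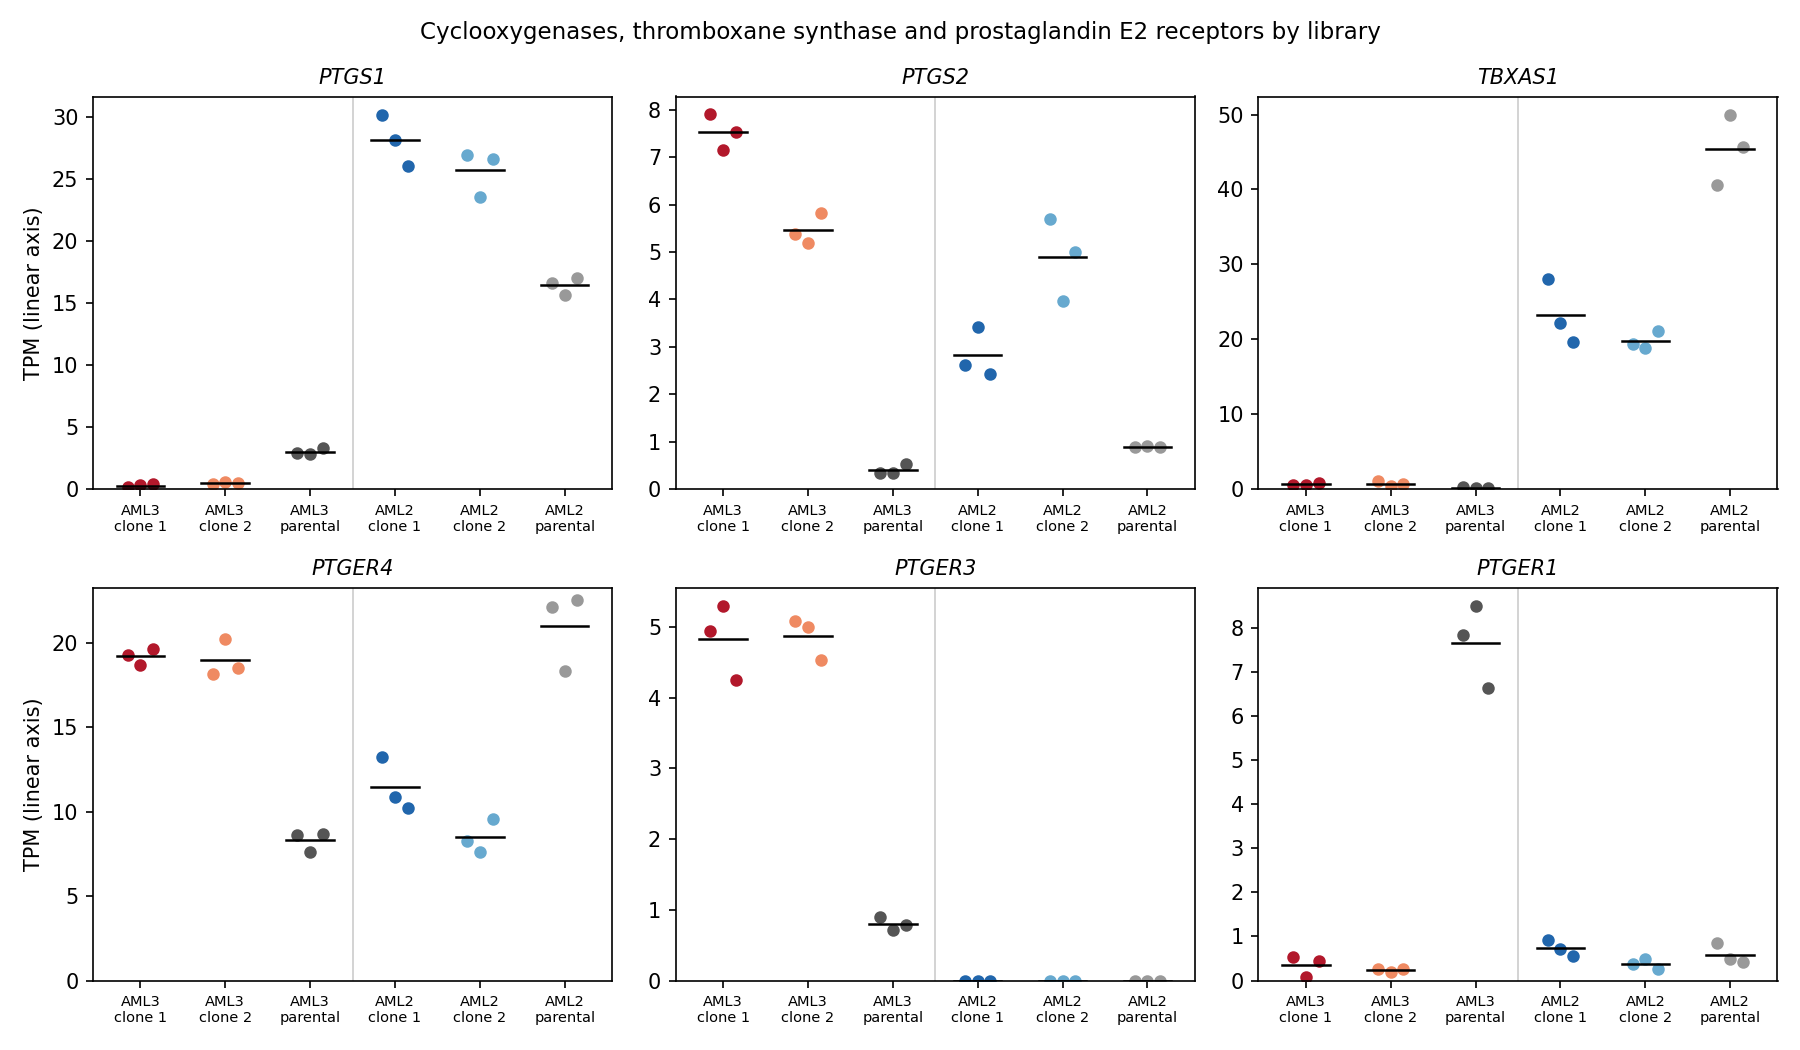
TPM on linear axes of both cyclooxygenases, thromboxane synthase TBXAS1 and the prostaglandin E2 receptors PTGER4, PTGER3 and PTGER1, with a point per library and a line at the mean of 3 libraries. In OCI-AML3 the clones are lower in PTGS1 and PTGER1 and higher in PTGS2, PTGER3 and PTGER4 than the parental cells.

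Of the 4 receptors for prostaglandin E2, PTGER1, PTGER3 and PTGER4 could be tied to values, and in OCI-AML3 PTGER1 changed in the direction opposite to PTGER3 and PTGER4. PTGER3, which encodes the inhibitory receptor EP3, rose in OCI-AML3 to 4.83 and 4.87 TPM in the clones, against 0.803 TPM in parental cells (log2 change 1.69 and 1.70, SE 0.07, adjusted p = 3.12e-13 and 2.81e-13). PTGER1, which encodes the calcium-linked receptor EP1, fell in OCI-AML3 to 0.353 and 0.243 TPM, against 7.67 TPM in parental cells (log2 change -2.69 and -2.80, SE 0.13, adjusted p = 2.22e-12 and 1.29e-12). PTGER3 reached 1 TPM only in the OCI-AML3 clones and PTGER1 only in OCI-AML3 parental cells, so each entered the test through the group where it is high. In OCI-AML2 PTGER3 was listed at 0 in all 9 libraries. PTGER1 averaged under 1 TPM in each OCI-AML2 group and did not pass in either clone. In the OCI-AML3 clones PTGER4 had the highest level of the 3 receptors, and in OCI-AML3 parental cells PTGER4 and PTGER1 were at 8.29 and 7.67 TPM and overlapped. PTGER4 was the only one of the 3 above 1 TPM on average in OCI-AML2.

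Of the 5 tested receptors, 4 rose and PTGER1 fell in OCI-AML3, while in OCI-AML2 FPR2 alone rose in both clones. Beside these, 67.1% of all tested sets passed in OCI-AML3 and 38.4% in OCI-AML2. Of the sets with a symbol, 85.3% and 45.8% passed. TBXA2R, the thromboxane receptor, rose in OCI-AML3 to 1.35 and 1.16 TPM in the clones, against 0.140 TPM in parental cells (adjusted p = 6.84e-06 and 3.95e-05). FPR2, a formyl peptide receptor that also binds lipoxin A4, rose in both lines, but it entered the test through the clones alone. It averaged 4.74 and 3.44 TPM in the OCI-AML2 clones and 0.980 TPM in their parental cells (adjusted p = 2.58e-09 and 6.24e-08), and 0.6 and 0.570 TPM in the OCI-AML3 clones and 0.0600 TPM in theirs (adjusted p = 0.000168 and 0.000268). OXER1, a receptor for the lipoxygenase product 5-oxo-ETE, passed as higher in OCI-AML3 (adjusted p = 0.000482 and 0.00320), also at under 1 TPM. In OCI-AML2 it was at 3.69 and 2.56 TPM in the clones and 1.92 TPM in parental cells and passed in clone 1 alone (adjusted p = 0.000288 for clone 1 and 0.102 for clone 2).

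AKR1C3 stood apart from its neighbours. AKR1C1 and AKR1C2 encode hydroxysteroid dehydrogenases that reduce progesterone and other steroids and also act on prostaglandins. The OCI-AML3 values of AKR1C1 were 1.71, 2.02 and 2.72 TPM for clone 1, and 3.34, 2.54 and 2.99 TPM for clone 2, against 11.1, 11.2 and 10.3 TPM in parental cells. It fell there (log2 change -1.92 and -1.59, SE 0.12, adjusted p = 7.37e-11 and 1.05e-09), in the same libraries in which AKR1C3 stood at 121 TPM or more. AKR1C2 was at 0.267 and 0.553 TPM in the OCI-AML3 clones and 0.950 TPM in parental cells. Its call as lower sat at the threshold in clone 2 (adjusted p = 0.0484), where its libraries overlapped with the parental ones, and held in 6 of 24 alternatives (range of the adjusted p 0.00331 to 0.220).

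In OCI-AML2 all 3 genes of the cluster were higher in the clones. AKR1C1 averaged 23.1 ± 0.622 and 19.2 ± 3.29 TPM in the clones and 9.75 ± 0.242 TPM in parental cells (log2 change 1.16 and 0.89, SE 0.12, adjusted p = 1.59e-07 and 2.97e-06, n = 3 each). AKR1C2 averaged 16.8 ± 0.624 and 16.45 ± 2.16 TPM in the clones and 6.67 ± 0.711 TPM in parental cells (log2 change 1.22 and 1.18, SE 0.15, adjusted p = 1.66e-06 and 1.68e-06). As TPM is scaled for length, the levels can be set side by side: in the OCI-AML2 clones all 3 lay between 13.96 and 37.3 TPM, and in the OCI-AML3 clones AKR1C3 was at 121 TPM or more and AKR1C1 at most 3.34 TPM. The 3 transcripts share sequence, and how the authors assigned shared reads is not given in the sources used here. In GENCODE 29, 6.08% of the 50-base words of coding AKR1C3 transcripts also stand in AKR1C1 and 7.61% in AKR1C2, while 43.2% of those of AKR1C2 stand in AKR1C1. Values of AKR1C1 and AKR1C2 are therefore less certain as separate genes than that of AKR1C3.

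**Figure D3:**
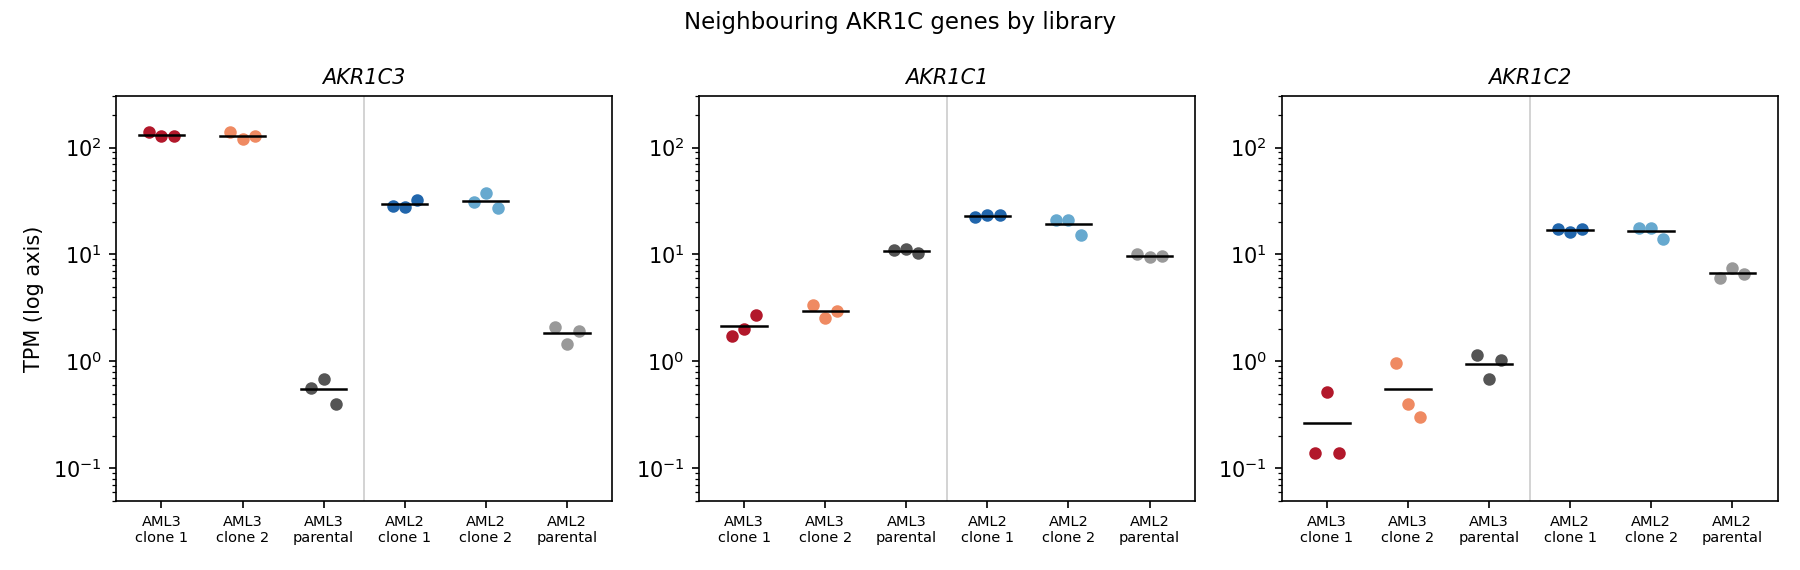
TPM of the neighbouring genes AKR1C3, AKR1C1 and AKR1C2 on one log scale, with a point per library and a line at the mean of 3 libraries. In the OCI-AML3 clones AKR1C3 is at 121 TPM or more and AKR1C1 is at or below 3.34 TPM, while in the OCI-AML2 clones the 3 genes lie between 13.96 and 37.3 TPM.

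Of 3 genes of precursor supply, 2 fell and 1 rose in OCI-AML3, where 67.1% of all tested sets and 85.3% of those with a symbol passed. FADS1 and FADS2, neighbouring desaturases on chromosome 11 that make arachidonic acid from linoleic acid, were the ones that fell. FADS1 averaged 52.2 and 47.1 TPM in the OCI-AML3 clones and 110 ± 5.05 TPM in parental cells (SD, n = 3), with log2 changes of -1.06 and -1.21 (SE 0.08, adjusted p = 6.12e-10 and 1.03e-10). FADS2 averaged 56.5 and 67.6 TPM in the clones and 206 ± 21.3 TPM in parental cells (log2 change -1.84 and -1.59, SE 0.10, adjusted p = 1.42e-11 and 1.03e-10, n = 3). In OCI-AML2 FADS1 did not pass (adjusted p = 0.943 and 0.494). FADS2 passed there as higher, at 294 and 301 TPM in the clones and 237 TPM in parental cells (adjusted p = 0.0177 and 0.00633), a call that ended in clone 1 without OCI-AML2 clone 1 replicate 1 (0.101) or replicate 2 (0.0670) and after rescaling by medians of ratios (0.103; range over 24 alternatives 0.00135 to 0.103). JMJD7-PLA2G4B, a read-through of JMJD7 and a phospholipase A2 gene whose reads overlap both, passed as higher in OCI-AML3, at 8.93 and 8.87 TPM in the clones and 4.42 TPM in parental cells (adjusted p = 0.00552 and 0.00485).

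In the remaining groups, SLCO3A1, an organic anion transporter that carries prostaglandins, fell in OCI-AML3 to 1.76 and 1.23 TPM in the clones, against 5.43 TPM in parental cells (adjusted p = 2.94e-08 and 1.54e-09). In OCI-AML2 it passed as higher, at 13.7 and 20.8 TPM in the clones and 10.7 TPM in parental cells (adjusted p = 0.0266 and 2.73e-06). That call ended in clone 1 without OCI-AML2 parental replicate 2 (0.119), clone 1 replicate 1 (0.0604) or clone 1 replicate 2 (0.0910), with a pseudocount of 0.1 TPM (0.106) and after rescaling (0.151), over a range of 0.00737 to 0.151. CYP2U1, a cytochrome P450 that hydroxylates arachidonic acid, fell in OCI-AML3 to 0.103 and 0.0967 TPM, against 6.20 TPM in parental cells (log2 change -2.70 and -2.71, SE 0.10, adjusted p = 1.12e-13 and 1.03e-13). EPHX2, the soluble epoxide hydrolase that removes epoxides of arachidonic acid, rose there to 8.06 and 6.76 TPM, against 2.14 TPM in parental cells (adjusted p = 6.71e-12 and 5.98e-11), and was listed at 0 in all 9 OCI-AML2 libraries. CYP2E1, a cytochrome P450 of small molecules and fatty acids, passed in both clones of neither line. It was at 1.30 and 1.67 TPM in the OCI-AML3 clones and 0.733 TPM in parental cells (adjusted p = 0.112 and 0.00893). In OCI-AML2 it was at 10.02 TPM in clone 1, 3.46 TPM in clone 2 and 3.88 TPM in parental cells (adjusted p = 5.07e-05 and 0.648).

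**Figure D4:**
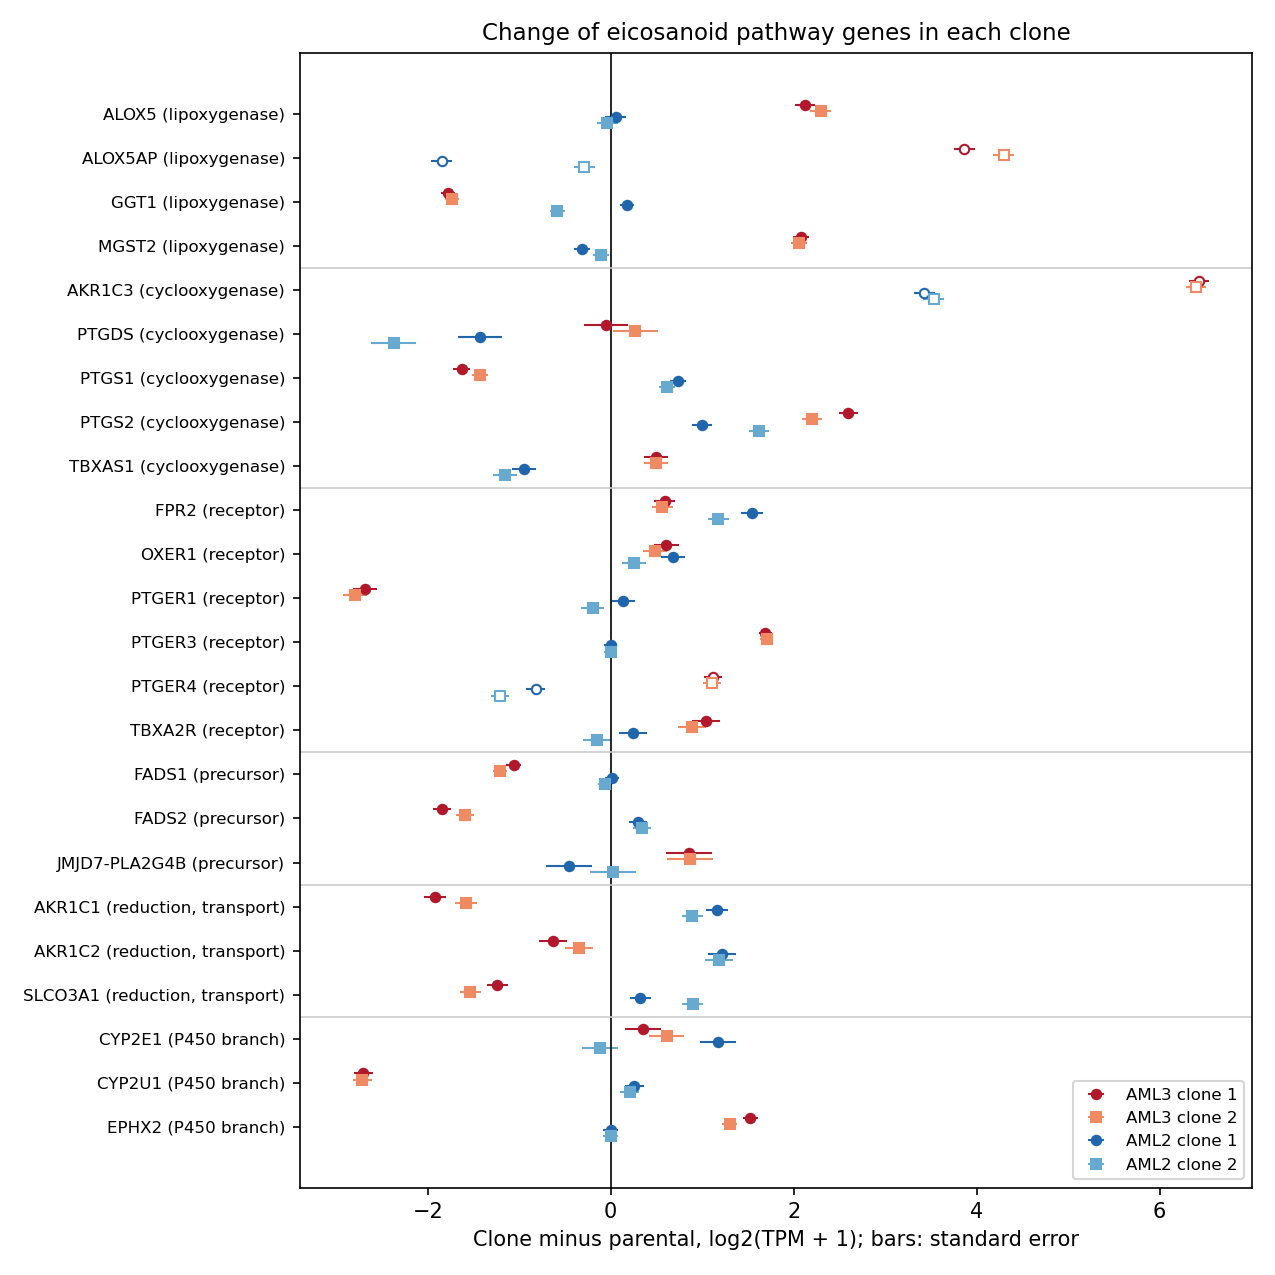
Log2(TPM + 1) change from parental cells, with its standard error, of the 21 tested pathway genes (filled) and of ALOX5AP, AKR1C3 and PTGER4 (open, described without a test), for each clone and ordered by role. Genes such as PTGS1, AKR1C1 and SLCO3A1 lie below 0 in the OCI-AML3 clones and above 0 in the OCI-AML2 clones, and PTGS2 and AKR1C3 lie above 0 in all 4.

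The difference between the lines was tested for the 21 genes by the line-by-clone interaction and counted only where all 4 pairwise differences of clone changes passed. It passed for 19 of 21, 9 with a higher change in OCI-AML3 and 10 with a lower one, beside 61.3% of all tested sets (24.2% higher, 37.1% lower) and 80.7% of those with a symbol. PTGER3 and EPHX2 were listed at 0 in OCI-AML2, so their difference repeats the OCI-AML3 test. ALOX5 and PTGER1, under 1 TPM in every OCI-AML2 library, nearly do so too. FPR2 rose in both lines, and its call as lower in OCI-AML3 ended with a pseudocount of 0.1 TPM. A narrower count took the 12 genes at 1 TPM in 3 libraries of each line and, with the lines pooled, on both sides. Of these 11 passed, 4 higher and 7 lower, beside 61.3% of all such sets and 79.9% of those with a symbol. Within OCI-AML3, PTGS1 and CYP2U1 still reached 1 TPM in 3 libraries only in parental cells, and TBXA2R only in the clones. The call of JMJD7-PLA2G4B held in 15 of 24 alternatives and ended with a replicate block or without any of 8 libraries, which were OCI-AML3 clone 1 replicate 1, clone 2 replicates 2 and 3 and parental replicates 1 and 3, and OCI-AML2 clone 2 replicate 1 and parental replicates 1 and 3. Between the clones of OCI-AML2, 10 of the 21 differed, 3 higher and 7 lower in clone 2 than in clone 1, beside the 58.9% given above. With a pseudocount of 0.1 TPM the count was 5, with 2 higher and 3 lower. The call of MGST2 held in 9 of 24 alternatives, and those of OXER1, FPR2, PTGER1 and TBXA2R also ended in some. Between the clones of OCI-AML3, 1 of 21 differed, PTGS2, which was lower in clone 2 (log2 difference -0.40, SE 0.11, adjusted p = 0.0367). That call ended with a replicate block (0.0545), with a pseudocount of 0.1 TPM (0.120) and when any of 5 libraries was left out: clone 1 replicate 1 (0.119), replicate 2 (0.0587) or replicate 3 (0.0859), or clone 2 replicate 1 (0.0931) or replicate 2 (0.130), over a range of 0.0220 to 0.130.

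Over the 18 libraries, a gene was ranked by how closely its log2(TPM + 1) values followed those of each of the 3 genes, among 2084 genes with a settled symbol. The points share the libraries and the difference between groups, so the correlations only describe likeness. For ALOX5AP the closest were INTS8, RTL8B, MGST2, PAG1 and NTSR1, with Pearson's r of 0.96 for each. MGST2, the leukotriene C4 enzyme above, was thus the third closest. For AKR1C3 they were BCL2A1 (0.98), ZNF316 (0.97), KLF12 (0.97), IL24 (0.97) and PTGS2 (0.96). BCL2A1, an anti-apoptotic relative of BCL2, averaged 40.6 and 38.7 TPM in the OCI-AML3 clones and 1.47 TPM in parental cells, and 21.8 and 23.8 TPM in the OCI-AML2 clones and 4.88 TPM in parental cells. For PTGER4 they were BASP1 (0.96), KIF21B (0.95), KLF15 (0.95), NDRG1 (0.93) and LHFPL6 (0.93). Among the 3 genes themselves r was 0.59 between ALOX5AP and PTGER4, 0.52 between AKR1C3 and ALOX5AP and 0.33 between AKR1C3 and PTGER4.

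Of the 7 lines that carry these symbols, ALOX5AP has 1, PTGER4 has 2 and AKR1C3 has 4. The ALOX5AP values also stand under CXCL1 and those of PTGER4 under MYO15B, each with the 3 OCI-AML3 clone 1 values rotated, and were assigned to ALOX5AP and PTGER4. The AKR1C3 values stand in 3 lines under that symbol alone. A second PTGER4 line held 0 in all OCI-AML2 libraries and at most 0.880 TPM elsewhere, and another AKR1C3 line held at most 4.22 TPM. Neither set recurs in the table. Both differ by more than 0.6 (log2) between the parental lines, so the rule for single lines tied no symbol to them and they were left out.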

How the data were processed

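RNA sequencing of 18 cell line libraries was deposited by the authors as 1 table of TPM, per the file headers. The aligner is not given in the sources used here, nor are the counter and the genome build. The table has 6999 lines for 4816 symbols, and 0 value columns lack a sample. Lines repeat with other symbols, so each of 5069 distinct sets of values was counted once. A symbol was tied to a set where the same values recur with the 3 OCI-AML3 clone 1 values rotated (1529 sets), where they recur under 1 symbol (118), or where a single line differs by less than 0.6 (log2) between the parental lines (673). The other 2749 sets stayed unnamed.

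Values were fitted as log2(TPM + 1), with 1 mean per group over 18 libraries, in limma 3.58.1 (R 4.3.3) with a trended prior, for the 4413 sets at 1 TPM or more in at least 3 libraries. Fold changes on this scale understate changes of low genes. P-values were two-sided and Benjamini-Hochberg adjusted over all 4413, with a threshold of 0.05. A gene was called in a line where both clones passed in the same direction. The fit was tested on simulated data. Every settled pathway gene is named, with the 5 most alike genes for each of the 3. The members and gene lists were chosen with earlier results of these data known. Alternatives were another pseudocount, other filters, rescaling by medians of ratios, a replicate block, no trend, symbols as printed, and leaving out each library. Promoters are from RefSeq and shared words from GENCODE 29.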

Additional observations from a re-analysis of the deposited data

Results flagged for a closer look

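The clone changes of 19 of the 21 tested pathway genes differed between the lines by the interaction in limma. So did those of 61.3% of all tested sets and 80.7% of those with a symbol. Each value is the mean clone change in OCI-AML3 minus that in OCI-AML2, in log2(TPM + 1), where all 4 pairwise differences passed. The change was more positive in OCI-AML3 for MGST2 (2.27), ALOX5 (2.20), PTGDS (2.01), PTGER3 (1.70), TBXAS1 (1.54), EPHX2 (1.41), PTGS2 (1.09), JMJD7-PLA2G4B (1.08) and TBXA2R (0.92). It was more negative in OCI-AML3 for CYP2U1 (-2.94), AKR1C1 (-2.78), PTGER1 (-2.71), PTGS1 (-2.21), FADS2 (-2.04), SLCO3A1 (-1.996), AKR1C2 (-1.69), GGT1 (-1.55), FADS1 (-1.11) and FPR2 (-0.78). PTGER3 and EPHX2 were listed at 0 in OCI-AML2, so their values hold the OCI-AML3 change alone. ALOX5 and PTGER1 were under 1 TPM in every OCI-AML2 library, with mean log2 changes of 0.01 and -0.03 there. Their values are thus almost all OCI-AML3 change. The call of JMJD7-PLA2G4B held in 15 of 24 alternatives. FPR2 rose in both lines, and its call ended with a pseudocount of 0.1 TPM. As a ratio of means its rise was larger in OCI-AML3, at 10-fold and 9.5-fold in clones 1 and 2. That ratio rests on a parental mean of 0.06 TPM. In OCI-AML2 the rise was 4.84-fold and 3.51-fold. The direction for FPR2 thus depends on the scale.

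ALOX5AP (5.15) and PTGER4 (2.13) moved one way in every OCI-AML3 clone library and the other way in every OCI-AML2 clone library. They had been chosen with these changes known, and the difference was not tested.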

How the results depend on the processing

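No called direction of a single gene reversed under the 24 alternatives fitted per gene, and symbols as printed gave counts alone. With a pseudocount of 0.1 TPM, 0 pathway genes differed between the OCI-AML3 clones and 5 between the OCI-AML2 clones, against 1 and 10. With symbols as printed, where 42 sets carry a pathway symbol, 33 were called in OCI-AML3, 16 in OCI-AML2, 30 between the lines, 2 between the OCI-AML3 clones and 21 between the OCI-AML2 clones. Of all tested sets, 67.1%, 38.4%, 61.3%, 6.82% and 58.9% were called in these comparisons, in the same order. Rescaling by medians of ratios put mean PTGER4 in OCI-AML3 clone 1 at 19.9 TPM, and moved the median of all sets by 0.17 (log2) for the line difference. Of the untested log2 differences of ALOX5AP, AKR1C3 and PTGER4, 11 moved by their SE or more under rescaling and 7 did not. With a pseudocount of 0.1 TPM 7 moved and 11 did not. Over the fits that left out 1 library 3 moved and 321 did not. Leaving out 1 library gave 0 to 2 genes between the OCI-AML3 clones, 0 of them without replicate 2 of clone 1 or replicate 1 or 2 of clone 2, and 2 without replicate 3 of clone 2. With a replicate block, 0 differed between the OCI-AML3 clones, and the other counts stayed within 1.5 times. Same-numbered libraries did not deviate together (median r -0.0295 over 45 pairs, against 0.00782 over 90 pairs with different numbers). Calls held in every setting for 18 of 19 genes in OCI-AML3, 7 of 9 in OCI-AML2 and 17 of 19 between the lines, and, ALOX5AP, AKR1C3 and PTGER4 included, for 7 of 12 between the OCI-AML2 clones and 0 of 2 between the OCI-AML3 clones. The exceptions against parental cells and between the lines were AKR1C2 in OCI-AML3, SLCO3A1 and FADS2 in OCI-AML2, and FPR2 and JMJD7-PLA2G4B between the lines. Counting only genes at 1 TPM in 3 libraries on each side, with both lines pooled, and in each line left 11 differing between the lines. This alternative was chosen after seeing the data. Depth is unknown, which leaves values under 1 TPM without a counting error.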
